A study of Mus musculus with 8 samples.

Results

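The genes described here encode protease inhibitors and their close relatives. They were taken as every gene with a single annotated symbol beginning with Serpin or Spink, or with Cst followed by a digit, together with *A2m*, *Slpi*, *Wfdc2*, *Spint1* and *Spint2*. This gave 80 of 21905 genes on the arrays, namely 20 serpins of clade A, 25 of clade B, 9 of clades C to I, 13 Spinks, 8 cystatins, 2 genes of the WAP family (*Slpi*, *Wfdc2*), 2 of the Kunitz family (*Spint1*, *Spint2*) and *A2m*. In 4 adrenals labelled sf1:Cre; Prkar1a Fl/Fl, *Spink8* and *Spink13* were higher than in 4 wild-type adrenals by more than 1 on the log2 scale, while *A2m* and *Serpinb1a* were lower by more than 1. Another 5 genes were modestly higher, *Serpinb1b* was modestly lower, and 70 genes did not pass the test.

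RNA came from whole adrenal glands of female mice aged 6 weeks, kept on a mixed genetic background. The 4 controls were littermates labelled WT, and which floxed or Cre alleles they carried is not given in the sources used here. The other 4 carried homozygous floxed *Prkar1a*, which encodes the type I alpha regulatory subunit of protein kinase A (PKA), and a Cre transgene under *Sf1* control. This driver recombines floxed alleles throughout the steroid-producing cortex as soon as it forms, whereas the arrays read the entire gland, medulla, capsule, vessels and any attached tissue included. Each sample was hybridised to 1 Affymetrix Mouse Gene 2.0 ST array. The knockout group is called KO and the controls WT, with the replicate numbers of the labels.

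Protease inhibitors set how long and where a protease stays active. Serpins offer a loop as bait and trap the serine protease that cuts it, but some members, such as corticosteroid-binding globulin, no longer inhibit any protease and carry hormones instead. Spinks block serine proteases with a Kazal domain, Kunitz and WAP proteins do so with other compact folds, cystatins occupy the active site of papain-like cysteine proteases, and alpha-2-macroglobulin closes around proteases of almost any class, after which the complex is removed through the receptor LRP1.

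Values are RMA signals on the log2 scale, so that a difference of 1 is a doubling of the signal, and signals of different genes cannot be ranked against each other. Array medians lay between 5.66 and 5.72, and correlations over all transcript clusters (the array's probe sets for 1 gene) were 0.988 to 0.995 within WT, 0.990 to 0.995 within KO and 0.978 to 0.985 between genotypes. The signal of *Prkar1a* was 8.83, 9.11, 9.04 and 8.70 in WT replicates 1 to 4 and 6.92, 7.30, 7.35 and 7.19 in KO replicates 1 to 4, a difference of -1.73 (SE 0.12), although some of its probes may lie outside the deleted part. Mean signals of 8 steroidogenic cortex markers were 12.07 to 12.23 in WT and 12.17 to 12.32 in KO, so that the labelled tissue carried its defining markers, and those of 6 chromaffin cell markers were 9.84 to 10.10 and 9.69 to 10.19. Single markers of both lists were called, with *Scarb1* (0.86), *Cyp11a1* (0.24) and *Pnmt* (0.54) higher in KO and *Mc2r* (-0.61) lower. All 6 zona glomerulosa markers were lower in KO (means of 9.48 to 9.84 in WT and 6.87 to 7.25 in KO), as were 10 of 12 adipocyte markers (7.44 to 9.65 and 6.32 to 7.61), with WT replicate 1 well below the other WT arrays in the adipocyte list. In whole glands, fewer cells of a type and less RNA per cell cannot be told apart.

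Of the 80 genes, 7 were called higher in KO (limma, Benjamini-Hochberg adjusted p under 0.05 over all clusters tested) and 3 lower, that is 8.75% and 3.75%, against 7.35% and 6.17% of all 22822 clusters. The study's methods add the requirement of a log2 fold change beyond 1, there with a t-test and here with limma. With it, 2 were higher and 2 lower, that is 2.5% each, against 1.08% and 0.929% of all clusters. The study itself reported more changed genes in each direction than were counted here. Every KO array was above every WT array for 10 genes (12.5%) and below for 5 (6.25%), against 10% and 8.95% of clusters. The share called higher was thus near the background of this comparison and the share called lower under it. The shares beyond 1 were above the background and rest on 2 genes in each direction. Among these, *Spink8* and *A2m* were already known to differ when the set was chosen, so that the shares beyond 1 are no result about the set. The median log2 fold change of the 80 genes was 0.015, against -0.02 over all clusters. The genes with the largest differences are described first, family by family.

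**Figure D1:**
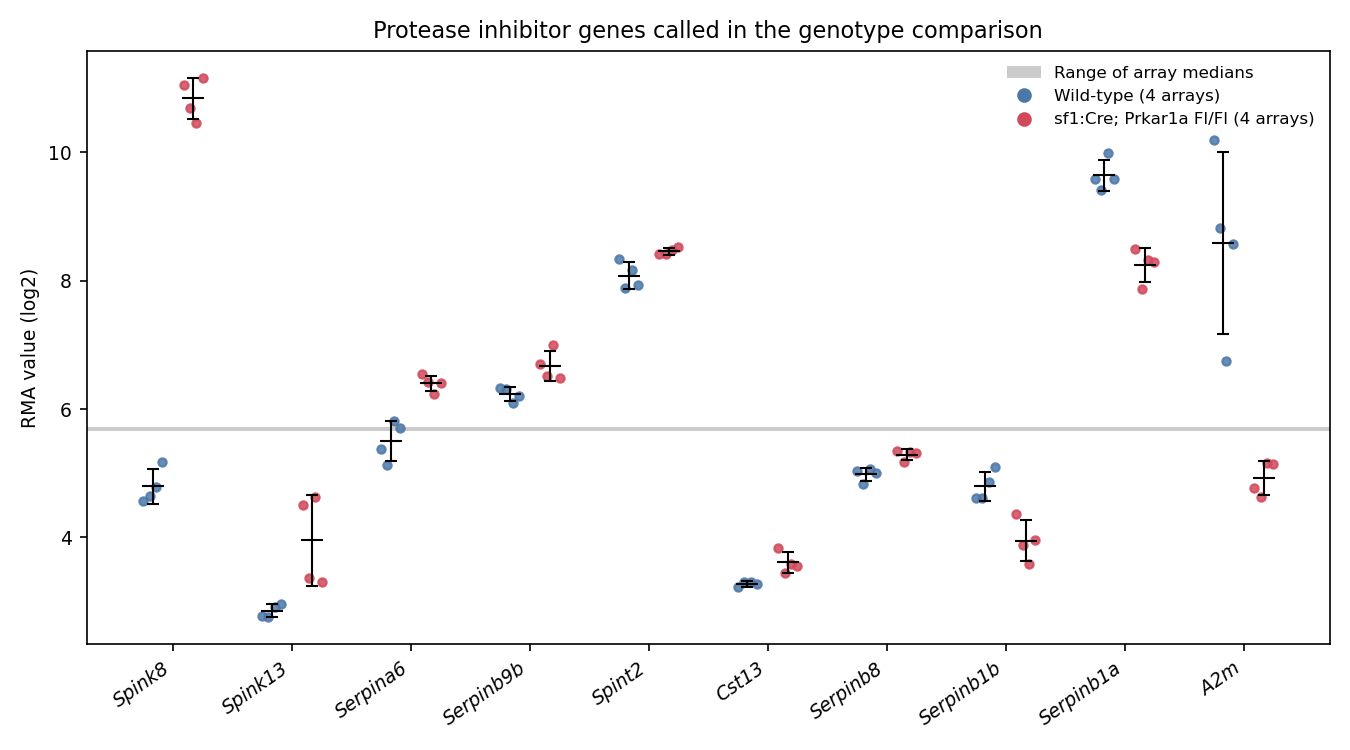
RMA signal (log2, vertical axis) of the 10 called protease inhibitor genes on each of 4 WT (blue) and 4 KO (red) arrays, with the mean and SD of each group and a grey band for the range of array medians (5.66 to 5.72). *Spink8* moved from 4.57 to 5.18 in WT to 10.46 to 11.16 in KO, and WT values of *A2m* were spread from 6.75 to 10.19.

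*Spink8* (transcript cluster 17522209), a Kazal-type inhibitor whose target protease is not established, had signals of 4.57, 4.65, 4.78 and 5.18 in WT replicates 1 to 4, and 11.05, 10.70, 10.46 and 11.16 in KO replicates 1 to 4. All WT values lay below the array medians and all KO values far above them, and the lowest KO array exceeded the highest WT array by 5.28. The difference was 6.05 (SE 0.17, 95% interval 5.67 to 6.43), or 66.3-fold, with an adjusted p of 4.4e-08 (limma). It ranked as number 1 of all genes by log2 fold change. *Spink8* was known as the largest rise when the set was chosen, so that its rank and adjusted p describe it and are no independent result. Within each genotype the replicates were close, with an SD of 0.27 in WT and 0.32 in KO.

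The second Spink that rose was *Spink13* (17354891), a Kazal-type inhibitor studied mainly in the rat epididymis. It had signals of 2.78, 2.76, 2.92 and 2.97 in WT replicates 1 to 4 and of 4.50, 3.37, 4.63 and 3.31 in KO replicates 1 to 4. The KO arrays fell into a higher and a lower pair, all of them above WT and all below the array medians. The difference was 1.09 (SE 0.28, adjusted p = 0.025, limma), with an SD of 0.71 in KO against 0.10 in WT. The call did not hold without any 1 of the 4 WT arrays, or without KO replicate 1 or 3 (adjusted p of 0.051 to 0.066, limma).

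None of the other 11 Spinks was called, and their log2 fold changes ranged from -0.12 for *Spink4* to 0.17 for *Spink12* (both chosen after their values were seen). *Spink1*, the pancreatic secretory trypsin inhibitor, differed by -0.0052, and *Spink5*, an inhibitor of the kallikreins of skin, by 0.04 (likewise chosen afterwards). The family therefore held the largest rise, known when the set was chosen, beside 11 members whose differences all lay within 0.2 of no change. All 11 had signals below the array medians on every array, most of them under the lower quartile, so that changes in them may be hidden. In the gene order of GRCm38.p6, *Spink8* has no other Spink among the nearest genes on either side, of which *Fbxw27*, *Nme6* and *Camp* were measured and differed by 0.06, 0.16 and 0.19 (adjusted p of 0.63, 0.22 and 0.39, limma). *Spink13* has *Spink7* and *Spink10* on one side, which differed by 0.12 and -0.08 (adjusted p of 0.36 and 0.59, limma). On the other side both nearest genes were called. *Apcdd1* was lower, by a log2 difference of -0.99, and *Napg* was higher by 0.34 (adjusted p of 0.0011 and 0.028, limma).

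**Figure D2:**
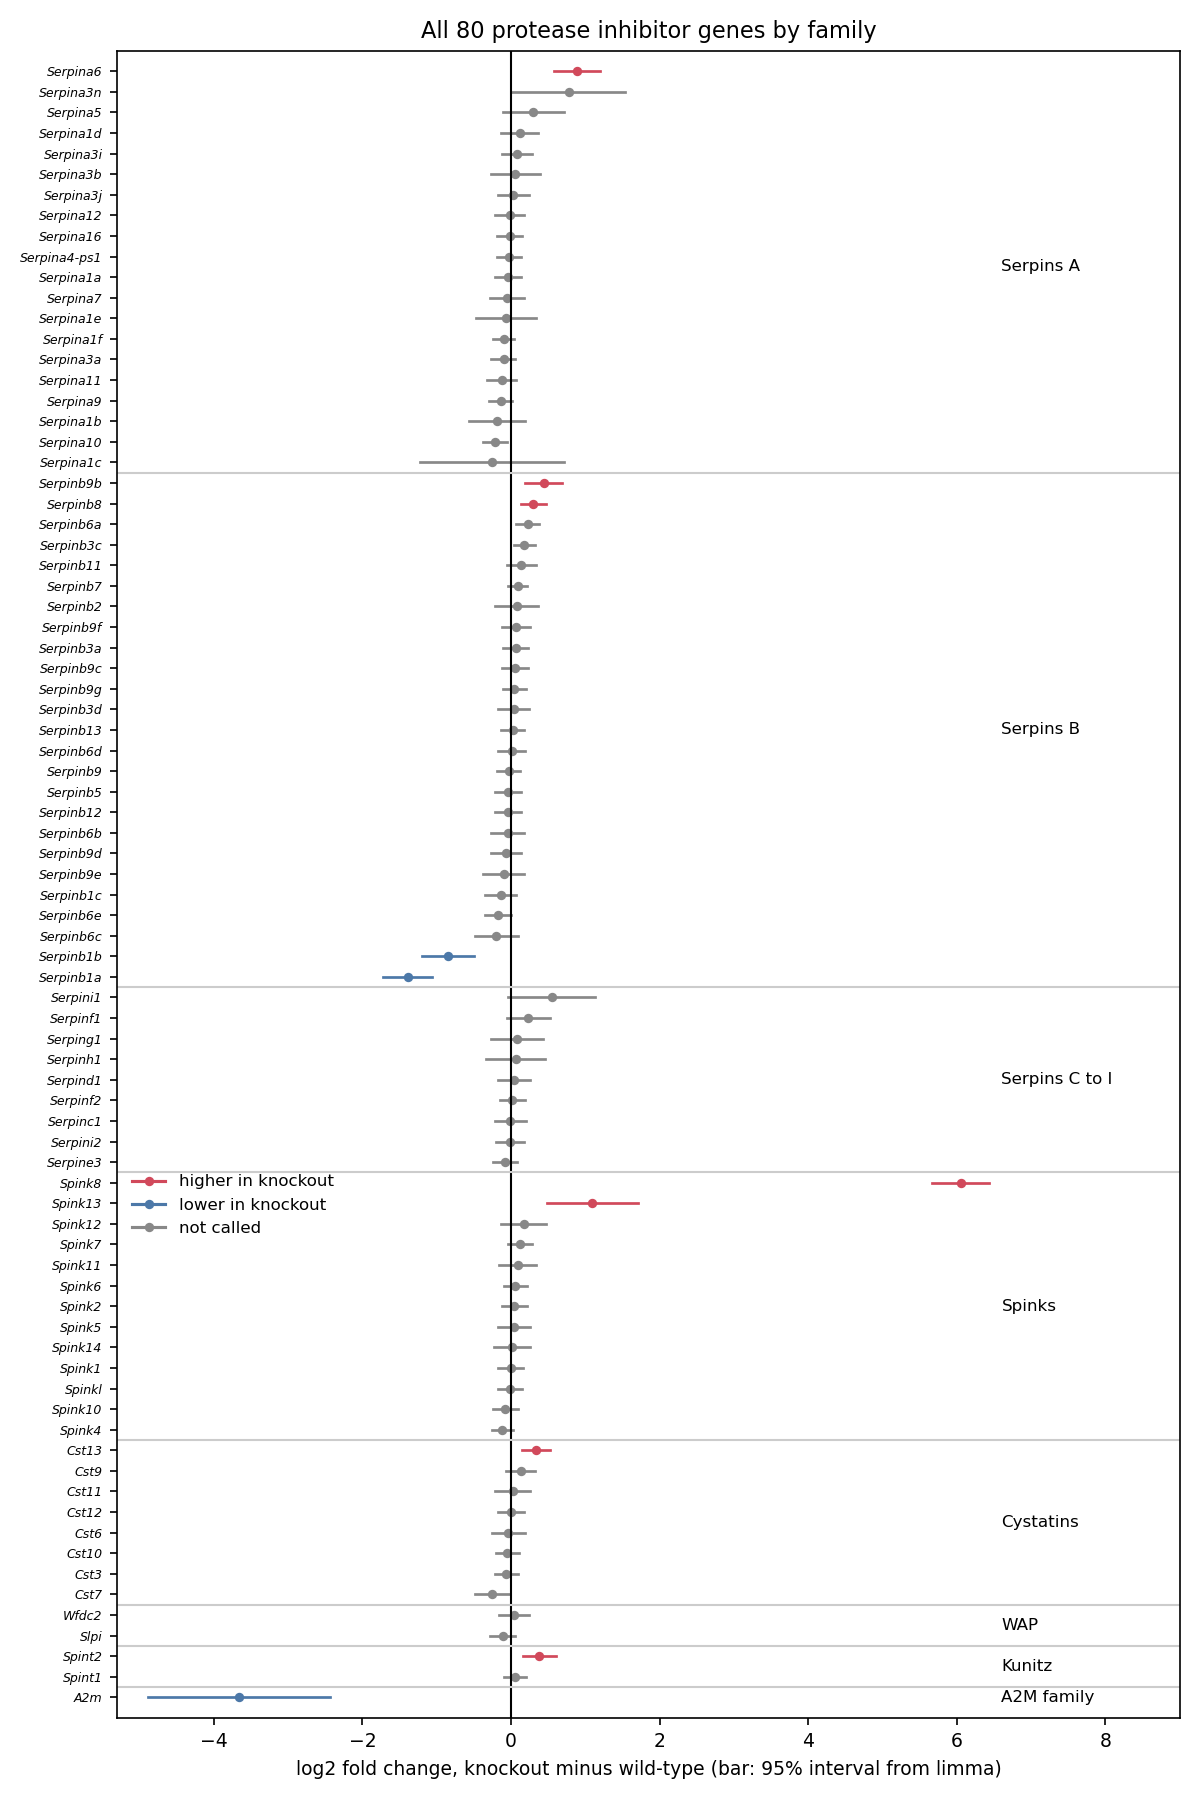
Log2 fold change (horizontal axis, KO minus WT, with the 95% interval from limma) of each of the 80 protease inhibitor genes, grouped by family and coloured red where higher, blue where lower and grey where not called. The 70 grey genes lie between -0.26 and 0.78, and *Spink8* at 6.05 and *A2m* at -3.66 stand far outside them.

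*A2m* (17462492) encodes alpha-2-macroglobulin. Its signals were 10.19, 8.83, 6.75 and 8.58 in WT replicates 1 to 4, and 4.77, 4.63, 5.16 and 5.15 in KO replicates 1 to 4. All KO arrays were below the array medians and below every WT array, by at least 1.58, but the WT arrays themselves were spread over 3.44. The difference was -3.66 (SE 0.55, 95% interval -4.88 to -2.43), or 12.6-fold lower, with an adjusted p of 0.0015 (limma). The SD of 1.4 in WT compared with 0.27 in KO, and with a median SD of 0.12 over the 80 genes in WT. Leaving out 1 array at a time gave differences from -4.27 (without WT replicate 3) to -3.12 (without WT replicate 1), each still called, whereas the test that lets the variances differ between genotypes gave an adjusted p of 0.11 (Welch's form, run as an alternative across all clusters).

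In the zona glomerulosa list WT replicates 1 to 4 had means of 9.84, 9.72, 9.48 and 9.54, and KO replicates 1 to 4 had 7.25, 6.87, 6.89 and 6.91. The WT arrays were in the same order as in *A2m*, over a far narrower range, and the KO arrays were not. In the adipocyte list WT replicates 1 to 4 had means of 7.44, 9.36, 9.29 and 9.65, and KO replicates 1 to 4 had 6.32, 6.94, 7.61 and 7.13. WT replicate 1 was thus the highest array for *A2m* and the lowest WT array for fat markers, and without it the difference in *A2m* was -3.12. The part of either list in the *A2m* difference was not tested. None of 7 hepatocyte markers was called, with means of 4.83 to 5.27 in WT and 4.84 to 4.87 in KO.

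Among relatives of *A2m*, *Mug1* (murinoglobulin 1, a single-chain protease trap of rodents) was also lower. It had signals of 5.18, 4.97, 5.27 and 5.51 in WT and 4.35, 4.22, 3.85 and 4.41 in KO, so that all KO arrays were below all WT arrays. The difference was -1.03 (SE 0.14, adjusted p = 7.8e-04, limma). *Mug2*, the next gene after *Mug1* in the order of GRCm38.p6, differed by -0.21 (adjusted p = 0.47) and *Pzp*, the pregnancy zone protein gene, by -0.022 (adjusted p = 0.93), both chosen after their values were seen. *A2m* and *Mug1* are direct neighbours in this order. Genes on the other side of *A2m* (*Iqsec3*, *Slc6a12*) differed by 0.06 and -0.09. Probes of close paralogues can bind each other's transcripts, here and in the serpin clusters below.

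**Figure D3:**
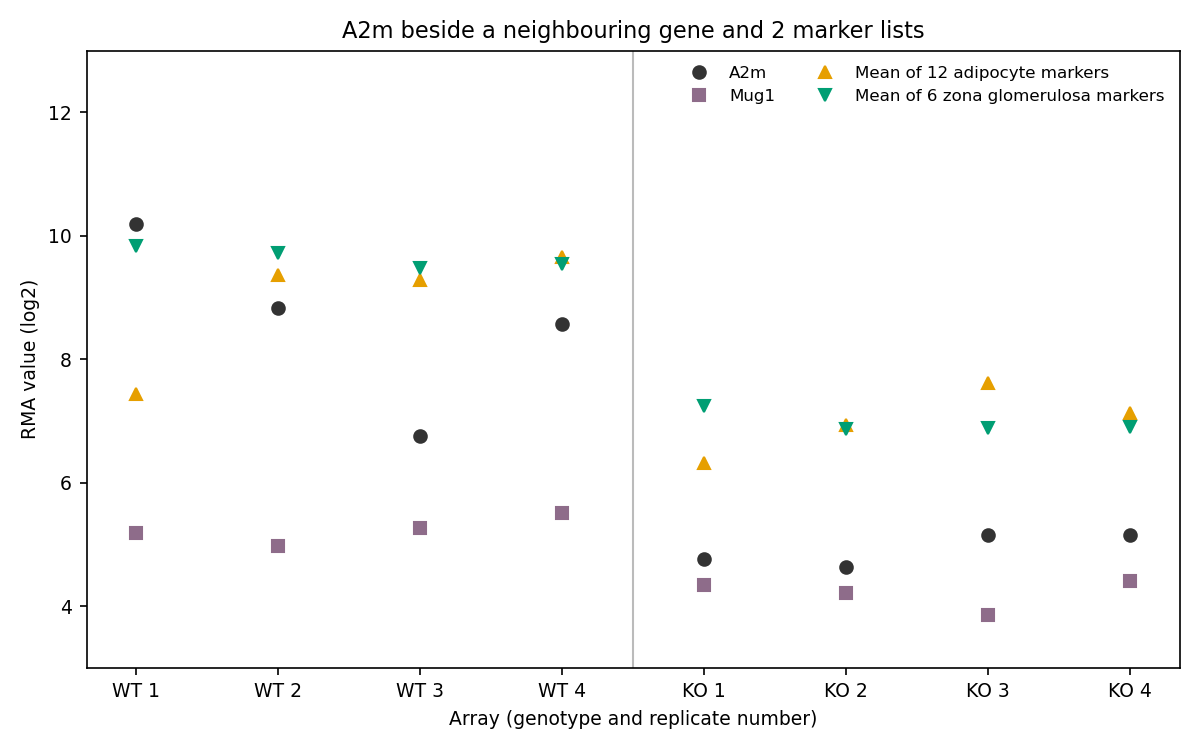
RMA signal (log2, vertical axis) on each array (horizontal axis, genotype and replicate number) of *A2m*, its neighbour *Mug1*, and the means of 12 adipocyte and 6 zona glomerulosa markers. WT replicate 1 has the highest *A2m* value (10.19) and the lowest adipocyte mean of the WT arrays (7.44), and all 4 measures are lower on KO arrays except that the adipocyte mean of KO replicate 3 (7.61) exceeds that of WT replicate 1.

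Clade B serpins act mostly inside cells. *Serpinb1a* (17291694), a mouse counterpart of the leukocyte elastase inhibitor that blocks the serine proteases of neutrophil granules, had signals of 9.59, 9.42, 9.99 and 9.58 in WT and of 8.50, 7.87, 8.32 and 8.29 in KO. The KO arrays lay below all WT arrays by at least 0.91, and on both sides the signal was well above the array medians. The difference was -1.39 (SE 0.15, 95% interval -1.72 to -1.06, adjusted p = 1.9e-04, limma), or 2.63-fold. Its paralogue *Serpinb1b* (17286385) had signals of 4.61, 4.62, 4.87 and 5.09 in WT and of 4.36, 3.88, 3.59 and 3.96 in KO, below all WT arrays and below the array medians throughout. It was lower by a log2 fold change of -0.85 (SE 0.16, adjusted p = 0.0052, limma), a call lost with Student's and Welch's forms across all clusters (adjusted p of 0.052 and 0.077). The third paralogue, *Serpinb1c*, chosen after its values were seen, differed by -0.14 with overlapping groups (adjusted p = 0.42).

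The granule proteases that *Serpinb1a* is known to block gave no called difference. Neutrophil elastase (*Elane*) differed by -0.10 (adjusted p = 0.39, limma), cathepsin G (*Ctsg*) by -0.16 (0.18) and proteinase 3 (*Prtn3*) by -0.011 (0.96), all chosen after their values were seen. Their signals were 5.04 to 5.28, 3.81 to 4.1 and 4.84 to 5.09, below the median of every array, so that changes in them may be hidden. Of 11 leukocyte markers, *Mrc1* was called, as higher (0.55), and the list's means ran from 6.59 to 6.73 in WT and from 6.49 to 6.87 in KO.

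Clade B also held 2 genes that rose. *Serpinb9b* (17286375), a paralogue of the granzyme B inhibitor *Serpinb9*, had signals of 6.33, 6.31, 6.10 and 6.20 in WT and of 6.70, 6.51, 7.0 and 6.49 in KO, a separation of 0.16 between the nearest arrays. It was higher by 0.44 (SE 0.11, adjusted p = 0.026, limma), and a second cluster of the same gene differed by 0.072 (adjusted p = 0.5). The call did not hold without WT replicate 3, WT replicate 4 or KO replicate 1 (adjusted p of 0.076, 0.061 and 0.056). *Serpinb8* (17216478), whose human counterpart inhibits furin, had signals of 5.04, 4.84, 5.06 and 5.01 in WT and of 5.34, 5.17, 5.33 and 5.32 in KO. The genotypes did not overlap, and the difference was 0.30 (SE 0.074, adjusted p = 0.020, limma). It fell short of the threshold without WT replicate 2 or without KO replicate 1, 3 or 4 (adjusted p of 0.051 to 0.060).

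*Serpinb9b* and *Serpinb1b* are neighbours in the gene order of GRCm38.p6 and moved in opposite directions, *Serpinb9b* up by 0.44 and *Serpinb1b* down by a log2 difference of -0.85. The genes around this pair, *Serpinb9* and *Serpinb6b* on one side and *Serpinb9c* and *Serpinb9d* on the other, differed by -0.03, -0.05, 0.06 and -0.07, none of them called. Their promoters are printed because the pair diverged, as the 250 bases before each RefSeq start site in GRCm38.p6. *Serpinb9b* is at chr13:33027164-33027413 and *Serpinb1b* at chr13:33083853-33084102, both on the plus strand. Each is given 5′ to 3′ and would show a match to the searched motifs (named further on) in capitals, of which there was none in either.
Serpinb9b: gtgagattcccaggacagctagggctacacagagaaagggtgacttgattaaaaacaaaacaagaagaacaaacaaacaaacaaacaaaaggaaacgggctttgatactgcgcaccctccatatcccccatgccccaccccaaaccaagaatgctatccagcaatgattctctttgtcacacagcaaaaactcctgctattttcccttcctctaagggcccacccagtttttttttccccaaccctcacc
Serpinb1b: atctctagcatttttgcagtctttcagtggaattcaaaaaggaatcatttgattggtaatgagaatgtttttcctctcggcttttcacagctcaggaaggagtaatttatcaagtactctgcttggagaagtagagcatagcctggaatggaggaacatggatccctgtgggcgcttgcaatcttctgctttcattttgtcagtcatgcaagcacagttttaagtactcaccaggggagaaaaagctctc

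The other 21 clade B serpins ranged from -0.20 to 0.23 and none was called. The nearest to the threshold was *Serpinb6a*, an inhibitor of trypsin and related proteases chosen after its values were seen, with signals of 7.41 to 7.54 in WT and of 7.61 to 7.82 in KO and a difference of 0.23 (adjusted p = 0.056, limma). The granzyme B inhibitor *Serpinb9* itself, at 8.01 to 8.12 in WT and 7.94 to 8.15 in KO, differed by -0.032 with an interval of -0.19 to 0.12. Granzyme B (*Gzmb*, chosen after its values were seen) differed by 0.13 (adjusted p = 0.48, limma), at signals below the median of every array. *Serpinb6b* differed by -0.046 (interval -0.27 to 0.18). Without a threshold on the test, clade B held 5 genes with every KO array above WT and 3 with every KO array below, of its 25 (20% and 12%, against 10% and 8.95% of all clusters).

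Among the 20 clade A serpins, many of which the liver secretes, only *Serpina6* was called. *Serpina6* (17283573) encodes corticosteroid-binding globulin, the plasma carrier of glucocorticoids. It had signals of 5.38, 5.13, 5.82 and 5.70 in WT and of 6.54, 6.42, 6.24 and 6.40 in KO. The lowest KO array was above the highest WT array by 0.42, and WT values lay on both sides of the array medians while KO values were all above them. The difference was 0.89 (SE 0.14, 95% interval 0.58 to 1.20, adjusted p = 0.0018, limma), or 1.85-fold, and Welch's form gave an adjusted p of 0.078. *Serpina7*, the thyroxine-binding globulin and the other hormone carrier of the clade, differed by -0.047 with overlapping groups. In gene order, *Serpina10* and *Serpina16* flank *Serpina6* and differed by -0.21 and -0.02 (adjusted p of 0.081 and 0.91), and *Ppp4r4*, beyond *Serpina10*, was higher by 0.74 (adjusted p = 0.0099, limma). Genes other than *Serpina6* in these sentences were chosen after their values were seen.

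The 19 other clade A serpins ranged from -0.26 to 0.78. The 0.78 belonged to *Serpina3n*, an inducible inhibitor of chymotrypsin-like proteases, with signals of 7.13, 5.90, 7.64 and 7.07 in WT and of 7.17, 7.88, 8.34 and 7.46 in KO (adjusted p = 0.19, limma). Its groups overlapped, and WT replicate 2 was the lowest array by a wide margin. The -0.26 belonged to *Serpina1c*, an alpha-1-antitrypsin paralogue that is 1 of a nearly identical set, with 3.28, 2.91, 3.44 and 5.07 in WT and 4.36, 3.18, 3.16 and 2.97 in KO. There 1 array of each genotype was high and the interval ran from -1.23 to 0.72. Both were chosen after their values were seen.

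No serpin of clades C to I was called, and the 9 differences ran from -0.08 to 0.55. The C1 inhibitor *Serping1* had signals of 9.64, 9.42, 9.62 and 9.43 in WT and of 9.09, 9.88, 9.87 and 9.59 in KO, a difference of 0.082 (interval -0.27 to 0.43). The collagen chaperone *Serpinh1* had 8.19, 8.26, 8.17 and 8.03 in WT and 7.74, 8.62, 8.56 and 7.99 in KO, a difference of 0.064 (interval -0.33 to 0.46). In both genes KO replicate 1 was the lowest of all 8 arrays, and the KO spread (SD of 0.37 and 0.43) exceeded that of WT (0.12 and 0.098). The same array was the lowest KO array in the mean of 8 capsule and fibroblast markers (8.04, against 8.62 to 8.74 in the other KO arrays and 7.98 to 8.29 in WT), of which 2 were called higher. The part of that list in these spreads was not tested. Neuroserpin (*Serpini1*, chosen after its values were seen) gave the 0.55, with 4.95, 5.55, 5.35 and 5.34 in WT and 6.77, 5.69, 5.46 and 5.44 in KO, where KO replicate 1 alone was far above the rest (adjusted p = 0.23, limma).

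Of the 8 cystatins, *Cst13* was called. *Cst13* (17377405), a member of the cystatin gene cluster on chromosome 2, had signals of 3.22, 3.30, 3.31 and 3.27 in WT and of 3.84, 3.45, 3.59 and 3.56 in KO, all under the lower quartile of every array. The groups did not overlap, with a difference of 0.34 (SE 0.085, adjusted p = 0.024, limma). The call did not hold without WT replicate 1, 2 or 3 or KO replicate 3 (adjusted p of 0.05 to 0.061). Cystatin C, encoded by *Cst3* and the main extracellular brake on cysteine cathepsins, had signals of 9.22, 9.21, 9.16 and 9.05 in WT and of 9.05, 9.16, 9.14 and 9.04 in KO. It differed by -0.062 (interval -0.21 to 0.09), and a second cluster of the gene by 0.046. *Cst7*, or cystatin F, differed by -0.25 (adjusted p = 0.16) with overlapping groups, and was chosen after its values were seen.

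The Kunitz inhibitor *Spint2* (17488806), which blocks membrane-bound serine proteases such as matriptase and hepsin, had signals of 8.34, 7.89, 8.16 and 7.93 in WT and of 8.41, 8.42, 8.48 and 8.53 in KO. All KO arrays were above WT, by 0.07 at the nearest, and the WT arrays were more spread (SD of 0.21 against 0.058). The difference was 0.38 (SE 0.10, adjusted p = 0.030, limma), and it fell short of the threshold without WT replicate 2 or 4 or without KO replicate 2, 3 or 4 (adjusted p of 0.054 to 0.084). *Spint1*, its paralogue with the same kind of targets, differed by 0.056 (interval -0.09 to 0.20). Matriptase (*St14*) and hepsin (*Hpn*) differed by 0.17 and -0.10 (adjusted p of 0.16 and 0.49, limma), with *St14* below the median of every array. In the WAP family, *Slpi*, the secretory leukocyte protease inhibitor, differed by -0.11 (interval -0.28 to 0.06) and *Wfdc2* by 0.04 (interval -0.16 to 0.24). Apart from *Spint2*, these genes were chosen after their values were seen.

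Many of the 80 genes gave little signal. The signal of 39 was under the lower quartile of all clusters (4.30 to 4.39) on every array. Of these 1 was called higher, *Cst13*, and 0 lower (2.56% and 0%, against 7.35% and 6.17% of all clusters). Another view of the same scale is that 12 genes were above the array median on all 8 arrays. Of these *Spint2* and *Serpinb9b* were called higher and *Serpinb1a* lower (16.7% and 8.33%). Shares of all clusters at these signal levels were not computed. Tested alone, the clusters above the median mean gave 1691 calls higher and 1304 lower, beside 1678 and 1407 over all 22822 clusters. Nearly as many calls thus came from far fewer clusters, so that the share over all clusters is a loose comparison for a set with 39 dim genes. At an unadjusted p under 0.05, 16 of the 80 genes passed (20%, against 25.9% of all clusters), and 6 of these were not called after adjustment.

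The proteases these inhibitors act on were read from lists of genes that are not members. Of 51 serine proteases measured, 4 were called higher and 4 lower (7.84% each, against 7.35% and 6.17% of all clusters), with a median of -0.03. The urokinase gene *Plau* had signals of 6.71, 6.93, 7.11 and 6.54 in WT and of 8.13, 8.28, 9.39 and 8.84 in KO, a difference of 1.84 (SE 0.24, adjusted p = 6.7e-04, limma). *Pcsk6*, a proprotein convertase, was higher by 2.68 (SE 0.19), *Prss35*, a serine protease homologue known from the ovary, by 2.02 (SE 0.089) and *Htra3*, a secreted protease, by 1.27 (SE 0.10). Their KO arrays were all above WT. The convertases *Pcsk5* and *Furin* were lower, by log2 differences of -0.62 and -0.31 (adjusted p of 5.6e-04 and 0.0094, limma), both chosen after their values were seen, beside the rise of 0.30 in the furin inhibitor *Serpinb8*.

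Of 12 lysosomal cysteine proteases and calpains, the targets of cystatins among them, 2 were called higher (16.7%, against 7.35% of all clusters) and 0 lower by limma (against 6.17%). At an unadjusted p under 0.05, 5 of the 12 passed (41.7%, against 25.9%), and the median was 0.12. Cathepsin L (*Ctsl*) had signals of 9.61, 10.21, 10.62 and 10.01 in WT and of 11.51, 11.68, 11.81 and 11.78 in KO, a difference of 1.58 (SE 0.18, adjusted p = 2.5e-04, limma). Cathepsin Z (*Ctsz*) was higher by 0.70 (SE 0.073). The cystatin C gene, in contrast, had an interval of -0.21 to 0.09. Of 34 inhibitors outside the rule, 3 were higher and 2 lower (8.82% and 5.88%, against 7.35% and 6.17% of all clusters), with a median of 0.048. *Cstb*, the intracellular cystatin B, was higher by 0.65 (SE 0.084), *Ahsg*, the fetuin A gene, by 1.12 (SE 0.20) and *Tfpi2*, a Kunitz-type inhibitor of the extracellular matrix, by 0.58 (SE 0.12).

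Receptors and cofactors through which proteases and inhibitors are cleared or held at the cell surface numbered 11, with 3 called higher and 1 lower (27.3% and 9.09%, against 7.35% and 6.17% of all clusters) and a median of 0.12. *Lrp8*, the apolipoprotein E receptor 2, had signals of 6.61, 6.93, 7.01 and 6.69 in WT and of 8.58, 8.41, 8.45 and 8.79 in KO, a difference of 1.75 (SE 0.11, adjusted p = 8.9e-06, limma). The urokinase receptor *Plaur* was higher by 0.67 (SE 0.15) and *Anxa2*, which binds plasminogen and its activator, by 0.66 (SE 0.083), while *Vldlr* was lower, by a log2 difference of -0.42 (SE 0.11). *Lrp1*, which removes alpha-2-macroglobulin complexes, differed by 0.15 (adjusted p = 0.39, limma) and was chosen after its values were seen.

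**Figure D4:**
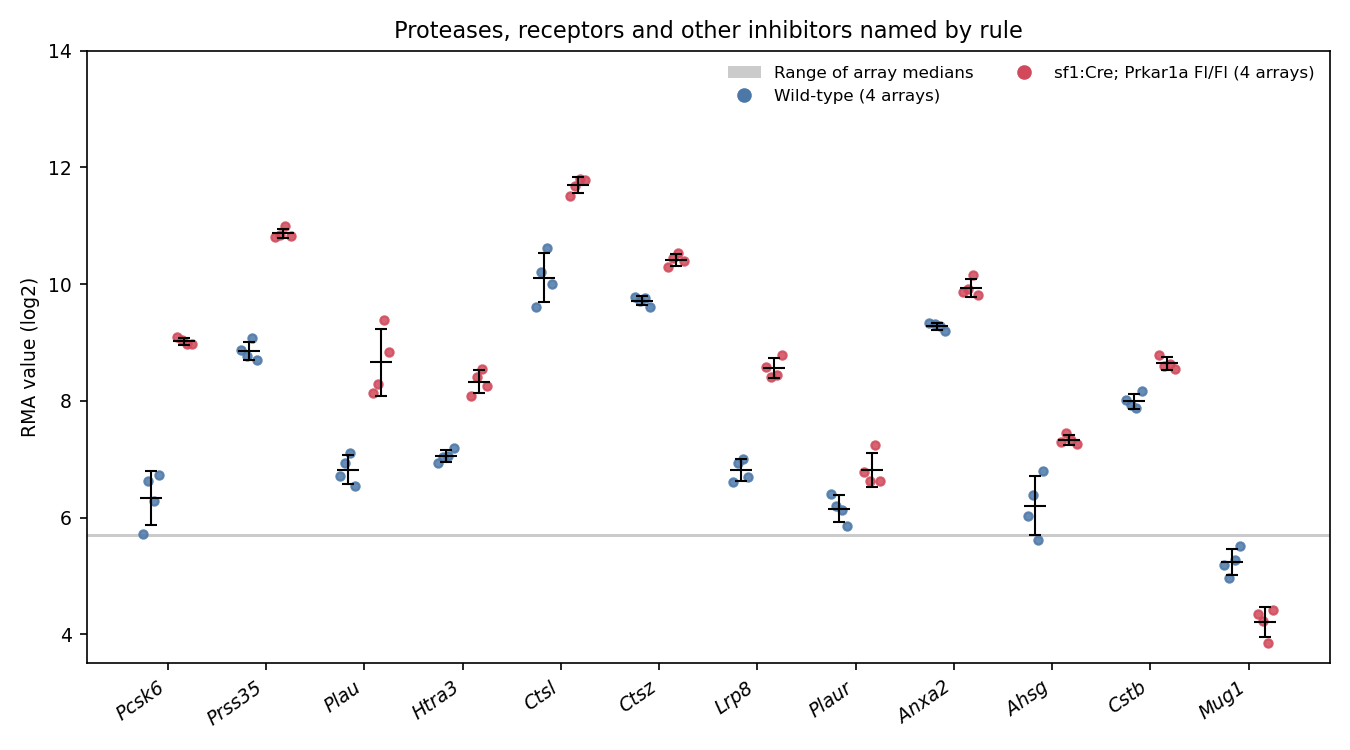
RMA signal (log2, vertical axis) of proteases, receptors and inhibitors outside the rule on each of 4 WT (blue) and 4 KO (red) arrays, with the mean and SD of each group and a grey band for the range of array medians. All genes shown but *Mug1* are higher on every KO array than on any WT array, by 1.58 on average for *Ctsl* and 1.84 for *Plau*. The genes are a selection. *Tfpi2* (0.58) and *Vldlr* (-0.42), named in the text by the same rule, and the 4 serine proteases called lower are not shown.

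RefSeq promoters of GRCm38.p6 were matched by symbol for 58 of the 80 genes (69 promoters), and the 250 bases before each start were searched on both strands for 4 motifs. These were the cAMP response element TGACGTCA, bound by CREB downstream of PKA, its core TGACG, which lies within it, the SF1 motif AAGGTCA, and the AP-1 motif TGACTCA. The full cAMP element was in 0 of 69 promoters and in 1.55% of all 32851 promoters of this length. Of the 69, the core was in 8 (against 17.8% of all promoters), the SF1 motif in 10 (against 4.08%) and the AP-1 motif in 7 (against 4.46%). Promoters with the core belonged to 7 genes, none of them called. Those with the SF1 motif belonged to 9 genes and those with the AP-1 motif to 7, with 1 called gene in each. Among the 5 called genes with a matched promoter, *Serpinb8* held an AP-1 match and *Cst13* an SF1 match, and *Spint2*, *Serpinb9b* and *Serpinb1b* held none of the 4. The promoters of *Spink8*, *A2m*, *Serpinb1a*, *Serpina6* and *Spink13* were not searched here. The promoters with a match are shown with it in capitals, 5′ to 3′. That of *Serpinb8* is at chr1:107589756-107590005 and that of *Cst13* at chr2:148819849-148820098, both on the plus strand.
Serpinb8: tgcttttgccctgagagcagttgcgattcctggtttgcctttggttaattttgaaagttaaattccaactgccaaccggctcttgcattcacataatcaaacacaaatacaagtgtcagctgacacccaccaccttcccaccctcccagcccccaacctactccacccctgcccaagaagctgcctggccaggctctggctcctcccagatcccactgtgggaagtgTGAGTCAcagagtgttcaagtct
Cst13: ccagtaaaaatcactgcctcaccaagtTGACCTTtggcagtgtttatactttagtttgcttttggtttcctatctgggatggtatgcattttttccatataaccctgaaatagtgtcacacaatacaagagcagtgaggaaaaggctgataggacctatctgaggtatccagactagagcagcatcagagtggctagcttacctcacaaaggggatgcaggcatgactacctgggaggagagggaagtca
The capitals of *Serpinb8* read TGAGTCA, the reverse complement of the AP-1 motif, beginning 23 bases before the start. Those of *Cst13* read TGACCTT, the reverse complement of the SF1 motif, beginning 223 bases before the start. A match of letters is a description of the sequence and not a binding site.

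Values of further cell type lists moved with genotype beside these genes. Of 7 endothelial markers, 3 were higher (*Kdr* 0.44, *Pecam1* 0.39, *Tek* 0.34), with means of 8.62 to 8.77 in WT and 8.79 to 8.99 in KO. Of 5 gonadal markers, 2 were higher (*Foxl2* 0.53, *Amhr2* 0.49), with means of 5.29 to 5.55 and 5.52 to 5.82. Their part in the rises of *Spink8*, *Spink13*, *Serpina6*, *Serpinb9b*, *Serpinb8*, *Cst13* and *Spint2* was not tested, nor was that of the zona glomerulosa and adipocyte lists in the lower signals of *Serpinb1a* and *Serpinb1b*. All 4 Schwann cell markers were uncalled, and of 5 exocrine pancreas markers *Ctrb1* was lower (-0.32). For each of the 10 called genes the exact permutation test over the 8 arrays (two-sided) gave p = 0.0286, the smallest value that 4 against 4 samples allow, so that this test does not order them.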

How the data were processed

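Total RNA of whole adrenals from 4 WT and 4 sf1:Cre; Prkar1a Fl/Fl mice was labelled and hybridised to 1 array per sample. The authors normalised the arrays by RMA with the affy package for R, whose version is not given in the sources used here, and deposited log2 values per transcript cluster. RMA corrects background, equalises the distributions of the arrays and summarises probes, so that a shift shared by most genes would be removed and small differences of dim genes compressed. The authors also deposited a table of their own log2 fold changes and adjusted p-values, which was not used.

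Of 28067 clusters, 22822 with 1 gene symbol in the platform annotation were tested. The 1703 with several symbols, 2 of them naming a serpin, and the 3542 with none were left out. Where a symbol had several clusters (779 symbols, here *Cst3* and *Serpinb9b*), the one with the highest mean was used. RefSeq (GRCm38.p6) held all 80 gene identifiers under the same symbols. The genotypes were compared with limma 3.58.1 in R 4.3.3 (lmFit, eBayes, two-sided, no covariate), with Benjamini-Hochberg adjustment over all 22822 clusters. The labels call the samples biological replicates. Tables and figures were made with Python 3.11.15, pandas 2.3.3, scipy 1.17.1 and matplotlib 3.10.9.

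The members and the lists were chosen with earlier results of these data known. Genes named are every called member, the 8 members of highest mean, *A2m* and *Spink8*, up to 4 called genes of each list of proteases, inhibitors and receptors, up to 3 of each marker list, and *Prkar1a*. Others are said to be chosen after their values were seen, and the neighbours in gene order were named as neighbours.

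On data simulated for this comparison over 22822 clusters, 62% of changes of 0.5, 96% of changes of 1 and 100% of changes of 2 and 4 (log2) were recovered, and 4.79% of calls were false. Far fewer clusters were changed in the simulation than were called in the data, so that these shares need not hold for the data. The number of arrays limits the precision. Alternatives were Student's and Welch's tests, the replicate number as a block, bright clusters only, a variance trend, array weights, 2 other scalings, all clusters, other clusters of a gene and each array left out.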

Additional observations from a re-analysis of the deposited data

Results flagged for a closer look

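Among 30 groups of 4 arrays examined (15 named genes in 2 genotypes), 1 array stood apart from its group. *Serpinb8* had a signal of 5.17 in KO replicate 2, against 5.32 to 5.34 in the other KO arrays, a gap of 0.881 of the group's range, past Dixon's critical value at the 95% level. Chance alone sets apart about 1 in 20 groups.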

How the results depend on the processing

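No called difference of a named member changed direction. The small differences of the uncalled *Cst3*, *Serpinb6b*, *Serping1* and *Serpinh1* did change sign under some alternatives, without being called. Over 15 named members, 253 values under the alternatives were compared with the reported ones, 212 kept their side of the threshold and 41 lost a call. *Spink8* (5.94 to 6.18) and *Serpinb1a* (-1.48 to -1.27) were called under each alternative, *A2m* and *Serpina6* under each but Welch's (adjusted p of 0.11 and 0.078), and *Serpinb1b* under each but Student's and Welch's (0.052 and 0.077). The other 5 called genes, whose differences were mostly under 0.5, lost the call under 5 to 9 alternatives each. With the methods' t-test as Student's, 4 members were higher and 1 was higher by more than 1 on the log2 scale, and 920 of all clusters were lower (1407 with limma). As Welch's, 1 member was higher and 1 lower, 1 higher and 1 lower beyond 1, and 710 clusters were higher (1678 with limma) and 492 lower. The count beyond 1 was also 1 with bright clusters only, which do not include *Spink13*, with a variance trend and with array weights. Other causes were not tested.

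Leaving out 1 array at a time gave 3 to 7 members higher, with 3 without WT replicate 2 or KO replicate 3 and 4 without WT replicate 3 or 4, always 3 lower, 1 to 2 higher by more than 1 (1 without any 1 WT array, KO replicate 1 or KO replicate 3), and always 2 lower by more than 1. Over all clusters 1315 to 1584 were higher and 1041 to 1310 lower. Whether the replicate numbers pair the samples is not given in the labels. Deviations of same-numbered arrays from their group means had correlations of -0.04 to 0.042, and no array correlated best with its own number. With 4 arrays per group these correlations cannot decide whether the samples were paired. With the number as a block, 4 members were higher and 3 lower. Arrays at 4 per group leave changes of 0.5 recovered in 62% of simulated cases, and dim genes, 39 of the 80, may hide changes.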
